A study of Chlamydomonas reinhardtii with 25 samples.

Results

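Transcripts of the light-harvesting chlorophyll-binding proteins of photosystem I (LHCA proteins) were examined in the green alga Chlamydomonas reinhardtii. The selection rule lists 7 gene IDs, named there LHCA1, LHCA2, LHCA4, LHCA5, LHCA7, LHCA8 and LHCA9, and takes the lines of the count table that carry them. Of the 7 IDs, 6 have a line among the 19526 of the table, and these 6 were all among the 12796 lines with enough counts to be tested. The ID of LHCA1, Cre06g283050, matched no line, so LHCA1 was not analysed here. The table gives IDs without names, and the reference used here lists all 7 IDs as locus tags with no other symbol, so the names are those of the rule.

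LHCA proteins are encoded in the nucleus, imported into the chloroplast and inserted into the thylakoid membrane. Each binds chlorophylls a and b and carotenoids, and passes the light energy it absorbs to the photosystem I core. In this alga the antenna lies mainly along one side of the core as an inner row, which includes LHCA7 and LHCA8, and an outer row, which includes LHCA4 and LHCA5. LHCA2 and LHCA9 bind as a pair at another side.

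Polyadenylated RNA was sequenced from whole cells of the wild-type strain CC-125, grown to mid-exponential phase in a diluted acetate medium under a light and dark cycle, washed, and kept for 2 h in a buffer of NaHEPES at neutral pH with calcium nitrate. That buffer was common to all groups. The exposed groups also received a rare earth element at 0.5 µM, which was cerium (Ce), thulium (Tm), yttrium (Y) or all 3 in equimolar mixture (Mix), and the control received no metal. Each of the 5 groups had 5 libraries, 25 in all, and it is not stated whether the concentration of the mixture is a sum over its metals. Nothing in the labels tells whether replicates were separate cultures, so the p-values reflect library-to-library spread, which may be technical.

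Levels are CPM, counts relative to the library total as scaled by TMM, a method that assumes most genes unchanged, and are given as mean ± SD over 5 libraries. Library totals ran from 12920957 counts (Tm library 2) to 28974088 (control library 2). The TMM factors were 1.40 to 1.46 in the Ce libraries, 0.69 to 1.16 in the controls and 0.86 to 0.99 in the others, so the Ce levels depend most on the scaling. Over all genes the biological coefficient of variation was 31.6% in the controls and 9.97% to 17.1% in the exposed groups. For the 6 genes the SD over mean of CPM, a different measure, was 5.45% to 14.5% in the controls and 3.45% to 12.9% in the exposed groups. In RNA from whole cultures, fewer cells with the transcript and less transcript per cell cannot be told apart.

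All 6 genes were higher than the control in Tm, Y and Mix. In Ce they had no common direction under TMM scaling, while all 6 were called higher with library totals alone. The increases were 1.33- to 1.97-fold in Tm, 1.50- to 2.68-fold in Y and 1.22- to 1.82-fold in Mix (adjusted p of at most 3.25e-05, 9.52e-08 and 0.00159, edgeR quasi-likelihood test, Benjamini-Hochberg over all genes tested). These p-values come from a fit that shares its spread estimate over all groups. With only the groups compared in each fit, the edgeR adjusted p were larger, at most 0.00347, 0.00013 and 0.0328. A higher level was called in 32.2% of all genes tested in Tm, 35.9% in Y and 30.9% in Mix. The median log2 fold change of the 6 genes was 0.69 in Tm, 1.01 in Y and 0.54 in Mix, beside -0.10, -0.02 and -0.12 over all genes tested. In Ce 1 of the 6 was called higher and 2 lower, where 44.9% and 36.2% of all genes were. All 5 libraries lay above all 5 controls for the 6 genes in Tm and Y and for 5 of the 6 in Mix, which was so for 23.2%, 27.9% and 21.2% of all genes tested. These comparisons share the control libraries and are not independent of each other. Under TMM scaling the mean level of each of the 6 genes was highest in Y, followed by Tm and then Mix. Ce and the control lay below them in either order. None of the 6 was called different between Tm and Mix, and none was called higher in Mix than in Ce with library totals alone.

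**Figure D1:**
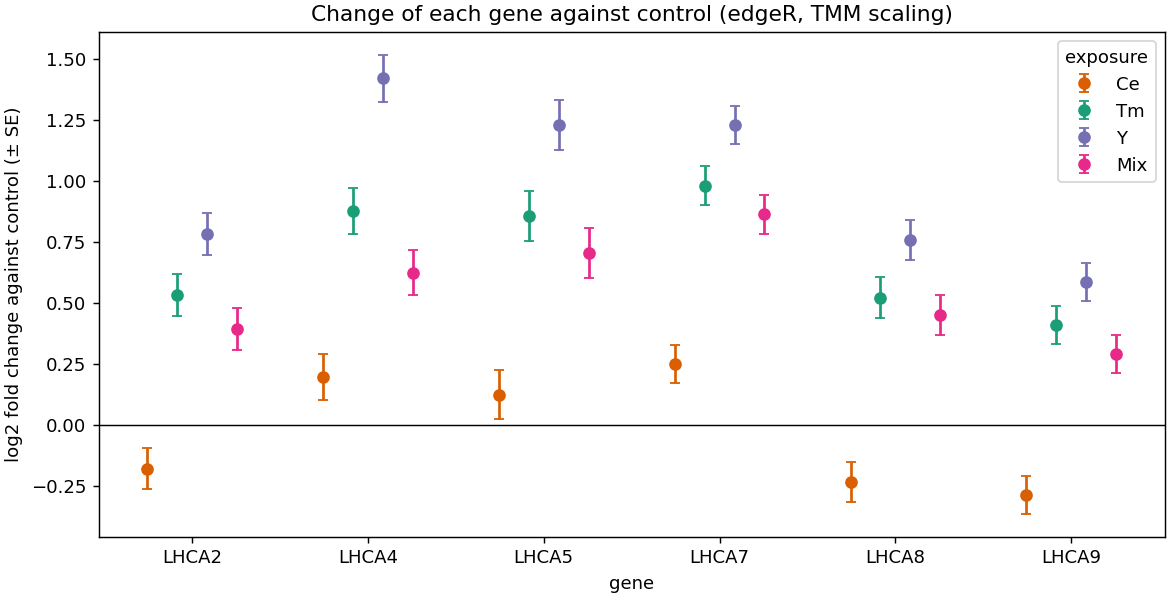
Log2 fold change against control of each of the 6 genes (horizontal axis) in the 4 exposures, with SE bars, from the edgeR fit over 25 libraries. Y lies highest for every gene, Tm and Mix lie between 0.29 and 0.98, and Ce lies on both sides of 0, from -0.28 (LHCA9) to 0.25 (LHCA7).

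Among the genes of the outer row, LHCA4 (Cre10g452050) had the largest increase of the 6 genes in Y. The control libraries 1 to 5 held 607, 601, 571, 749 and 664 CPM, and the Y libraries 1784, 1718, 1835, 1532 and 1670. All Y libraries lay far above the highest control, and the log2 fold change was 1.42 ± 0.10 (SE, edgeR adjusted p = 9.22e-14). Tm libraries held 1252, 1047, 1094, 1262 and 1211 CPM and Mix libraries 998, 896, 913, 1087 and 1029. Both groups lay above all controls, Tm with a log2 fold change of 0.88 ± 0.09 and Mix with 0.63 ± 0.09 (edgeR adjusted p = 2.29e-09 and 1.06e-06), and the range of Mix reached into that of Tm. Ce libraries, at 879, 732, 715, 653 and 684 CPM, overlapped the controls (0.20 ± 0.09, edgeR adjusted p = 0.052).

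LHCA5 (Cre10g425900), the other gene measured for the outer row, had 607 ± 56.9 CPM in the control and 1425 ± 119 in Y. The log2 fold change in Y was 1.23 ± 0.10 (edgeR adjusted p = 9.77e-12). LHCA5 had 1098 ± 117 CPM in Tm and 989 ± 113 in Mix, with changes of 0.86 ± 0.10 and 0.70 ± 0.10 (edgeR adjusted p = 1.74e-08 and 5.63e-07). All libraries of these 3 groups lay above the highest control, at 701 CPM. In Ce its level was 662 ± 85.2 CPM and was not called different (log2 fold change 0.13 ± 0.10, edgeR adjusted p = 0.253).

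Among the genes of the inner row, LHCA7 (Cre16g687900) had the largest increase of the 6 in Tm and in Mix. It was called higher in Ce (edgeR adjusted p = 0.00485), though not with DESeq2 (adjusted p = 0.0535). The control libraries held 1130, 1211, 1120, 1269 and 1141 CPM. Tm libraries held 2414, 2306, 2242, 2472 and 2158, Y libraries 2782, 2814, 2908, 2671 and 2589, and Mix libraries 2186, 2152, 2096, 2373 and 1878. All of these libraries lay above the highest control, and the log2 fold changes were 0.98 ± 0.08, 1.23 ± 0.08 and 0.86 ± 0.08 (edgeR adjusted p = 7.1e-12, 4.15e-14 and 9.72e-11). Ce libraries held 1576, 1386, 1438, 1284 and 1299 CPM, all above the highest control by a small margin (0.25 ± 0.08, edgeR adjusted p = 0.00485). Libraries that do not overlap and are higher in Ce were found in 36.2% of all genes tested.

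LHCA8 (Cre06g272650), also of the inner row, had 1124 ± 127 CPM in the control, 1901 ± 74.3 in Y, 1615 ± 84.7 in Tm and 1537 ± 110 in Mix. Its log2 fold changes were smaller than those of LHCA7, at 0.76 ± 0.08, 0.52 ± 0.08 and 0.45 ± 0.08 (edgeR adjusted p = 2.63e-09, 2.3e-06 and 2.08e-05). In Ce it was called lower, at 957 ± 68.1 CPM (-0.23 ± 0.08, edgeR adjusted p = 0.0119), although its libraries overlapped the controls. One cell of its line, Tm library 5, held text before the number and was read as 27580 counts. The ratio of LHCA8 to LHCA9 counts was 0.917 in that library and 0.904 to 0.943 in the other Tm libraries.

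The genes of the pair LHCA2 and LHCA9 had the smallest increases in Mix, with LHCA9 the smallest of the 6 in every exposure that raised them. LHCA9 (Cre07g344950) held 1173, 1360, 1211, 1485 and 1382 CPM in the control libraries, 2028, 2011, 2027, 1867 and 2006 in Y, and 1802, 1688, 1619, 1862 and 1812 in Tm. Mix libraries, at 1608, 1558, 1509, 1742 and 1669 CPM, lay just above the highest control, and Ce libraries, at 1187, 1089, 1072, 1011 and 1066, lay mostly below the controls but overlapped control library 1. Its log2 fold changes were 0.59 ± 0.08 in Y, 0.41 ± 0.08 in Tm, 0.29 ± 0.08 in Mix and -0.28 ± 0.08 in Ce (edgeR adjusted p = 9.52e-08, 3.25e-05, 0.00159 and 0.00148).

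LHCA2 (Cre12g508750) had 1833 ± 265 CPM in the control, 3159 ± 115 in Y, 2654 ± 145 in Tm and 2411 ± 141 in Mix. The log2 fold changes were 0.79 ± 0.09, 0.53 ± 0.09 and 0.40 ± 0.09 (edgeR adjusted p = 2.64e-09, 2.86e-06 and 0.000175). Control library 4, at 2218 CPM, was the highest control and overlapped the Mix range, which began at 2215, the only such overlap among the 6 genes in Tm, Y and Mix. In Ce the level was 1621 ± 94.9 CPM, with a log2 fold change of -0.18 ± 0.09 that was not called (edgeR adjusted p = 0.0575).

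**Figure D2:**
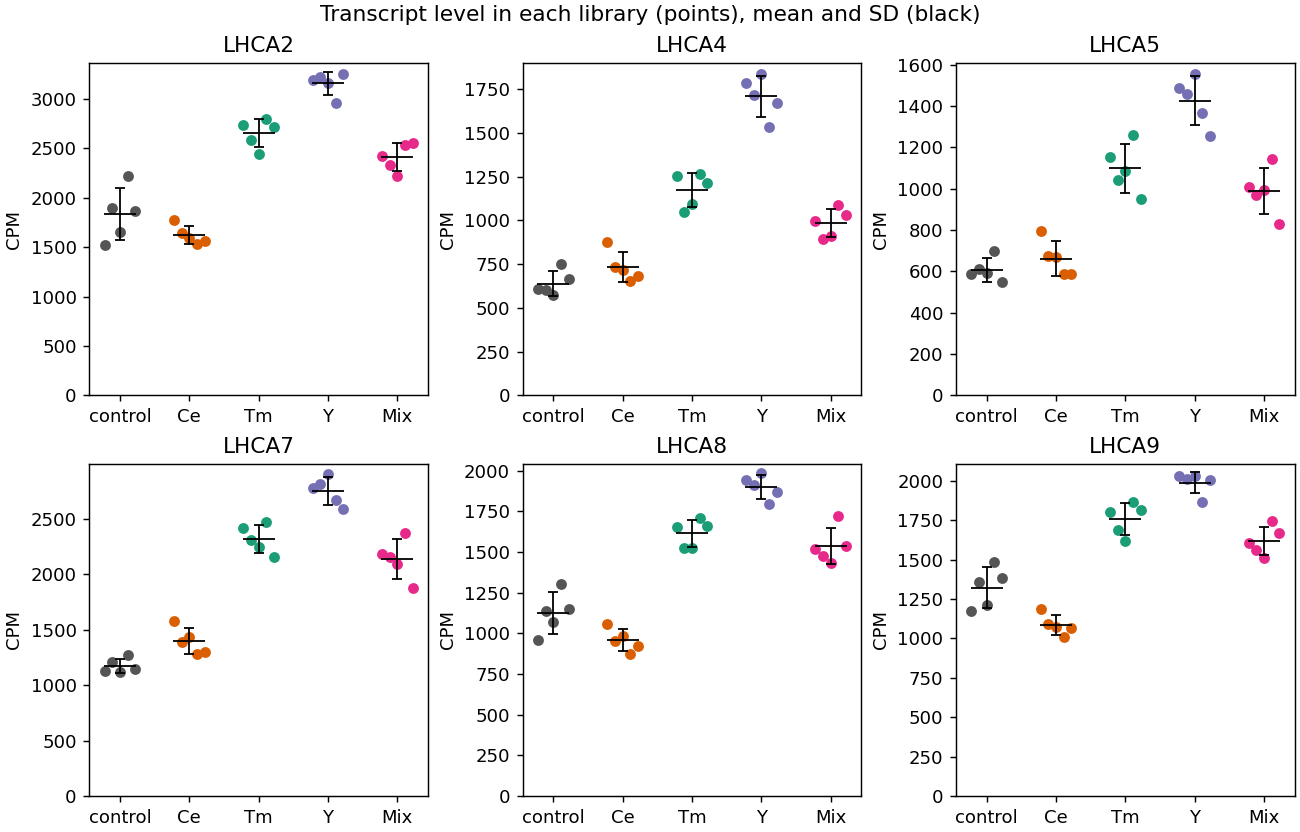
Level of each of the 6 genes in CPM (vertical axes start at 0) in the 5 libraries of each group, with the mean and SD in black. The Y libraries form the highest group for every gene, Tm and Mix overlap each other, and the Ce libraries lie close to the controls.

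Whether the 6 genes differed between Ce and the control depended on the scaling between libraries. With library totals alone all 6 were called higher in Ce, by log2 fold changes of 0.46 (LHCA9) to 0.98 (LHCA7), with edgeR adjusted p of at most 1.05e-06. The median of all genes tested then moved from 0.22 to 0.95 in Ce, and under both scalings 5 of the 6 genes lay below that median and LHCA7 just above it. With upper-quartile factors LHCA4, LHCA5 and LHCA7 were called higher, and with the size factors of DESeq2 LHCA2, LHCA8 and LHCA9 were called lower. As a share of all counts, without any scaling factor, the 6 genes together took 0.570% ± 0.080 of the control libraries and 0.921% ± 0.066 of the Ce libraries. In Tm, Y and Mix this share was 0.987% ± 0.037, 1.25% ± 0.04 and 0.889% ± 0.037. The direction against control was upward in these 3 exposures for all 6 genes under each of the scalings tried.

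**Figure D3:**
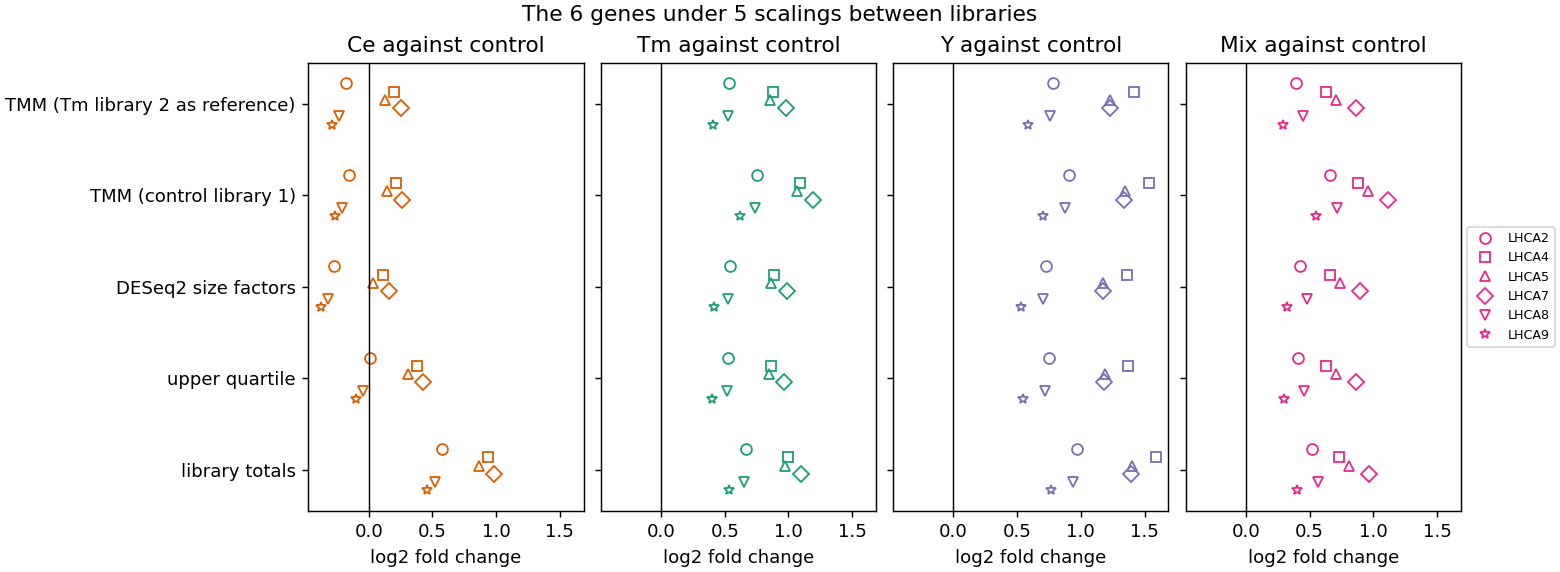
Log2 fold change against control (horizontal axis) of the 6 genes, 1 symbol a gene, under 5 scalings between libraries (rows) for the 4 exposures. In Tm, Y and Mix all symbols lie right of 0 in every row, while in Ce they straddle 0 except with library totals, where they run from 0.46 to 0.98.

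Set against each other under TMM scaling, the exposures separated Ce from the rest, but only its difference from Y held under every scaling tried. All 6 genes were lower in Ce than in Tm, by log2 differences of -0.75 to -0.68, and lower than in Y, by -1.22 to -0.87 (edgeR adjusted p of at most 2.96e-07 and 3.27e-10), where 34.2% of all genes were called lower in either comparison. The Ce libraries lay below all Tm and all Y libraries in each of the 6, as in 30.2% and 31.7% of all genes. With library totals alone 1 of the 6 was still called lower than in Tm, with differences of -0.14 to -0.06, and all 6 were still called lower than in Y. Between Tm and Y 5 of the 6 were lower in Tm, where 11.0% of all genes were. The difference was largest for LHCA4 (-0.54 ± 0.09, edgeR adjusted p = 0.000183) and was not called for LHCA9 (-0.18 ± 0.08, edgeR adjusted p = 0.1). The count of 5 fell to 2 with control library 1 as the TMM reference or with DESeq2, with LHCA4 at -0.44 and -0.48.

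The series title asks about interactions between the elements, and the mixture was set against each metal and against their mean. It is not stated whether the concentration of the mixture is a sum over its metals. These comparisons therefore cannot tell an interaction from a difference in dose, and interaction was not tested. Mix was called different from Tm in 0 of the 6 genes by edgeR, DESeq2 and limma-voom, where 1.17% of all genes were called by edgeR, and 1 of the 6, LHCA4, had an unadjusted p under 0.05. The log2 differences ran from -0.25 ± 0.09 for LHCA4 to -0.07 ± 0.08 for LHCA8, all toward a lower level in Mix, and the 95% intervals of the 6 lay within -0.44 and 0.10. Mix was lower than Y in all 6, where 19.2% of all genes were called lower, most of all for LHCA4 (-0.79 ± 0.09, edgeR adjusted p = 3.16e-07). With control library 1 as the TMM reference 4 of the 6 were still called lower than Y, and LHCA8 and LHCA9, both at -0.16, were not (edgeR adjusted p = 0.0827 and 0.0909). Mix was higher than Ce in all 6, by 0.43 to 0.68 (edgeR adjusted p of at most 0.000169), where 33.9% of all genes were called higher. The difference from Ce was lost with library totals alone, where 0 of the 6 were called higher by edgeR and 1, LHCA4, was called lower (-0.21).

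Against the mean of the 3 metals, Mix was called lower in 1 of the 6 genes, LHCA4 (-0.21 ± 0.08, edgeR adjusted p = 0.0256), where 28.7% of all genes were called lower. The other 5 had differences of -0.03 to 0.10 that were not called, with 95% intervals within -0.20 and 0.24. This comparison is not a test of interaction, as the dose of each metal within the mixture is not stated. It also followed the scaling closely. With library totals alone all 6 genes were called lower in Mix, and with control library 1 as the TMM reference 4 were called higher and LHCA4 was at -0.06 and not called. LHCA4 lay below the mean of the metals under every alternative to the main fit, at -0.45 to -0.06, though it was not called in all of them. With each library left out in turn it was at -0.22 to -0.03, and its call was lost in 18 of the 25 fits (edgeR adjusted p up to 0.791). The sign for LHCA4 was thus kept but the call was not. For the other 5 genes the sign changed with the scaling, and no direction of the mixture against the mean of the metals can be read.

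The proportions among the 6 genes differed between the control and the exposed libraries. The share of each in their summed counts is a ratio within a library and does not depend on the scaling, and it was compared as ranges, without a test. LHCA7 took 16.4% to 18.9% of the sum in the controls and 19.8% to 22.9% in the exposed libraries, Ce included. LHCA9 took 19.2% to 20.5% in the controls and less, 15.1% to 17.6%, in the exposed libraries. LHCA4 held 9.53% ± 0.54 of the sum in the control and 13.2% ± 0.4 in Y, with 11.3% ± 0.4 in Ce, 11.0% ± 0.5 in Tm and 10.2% ± 0.5 in Mix, and its Mix range overlapped that of the controls. LHCA8 held 16.8% ± 0.5 in the control and 14.7% ± 0.1 in Y, while its Mix share, 15.9% ± 0.3, overlapped the control range. LHCA5 held 9.09% ± 0.64 in the control and more in Y, 11.0% ± 0.6, and its range overlapped that of the controls in Ce, Tm and Mix. The shares of LHCA2 overlapped the control range in all 4 exposures. Across the 25 libraries the profiles of LHCA2, LHCA8 and LHCA9 lay within a root-mean-square difference of 0.074 of each other on the centred log2 CPM scale, and LHCA5 lay at 0.093 from LHCA7, against 0.19 to 0.28 between any of the first 3 and LHCA4, LHCA5 or LHCA7.

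**Figure D4:**
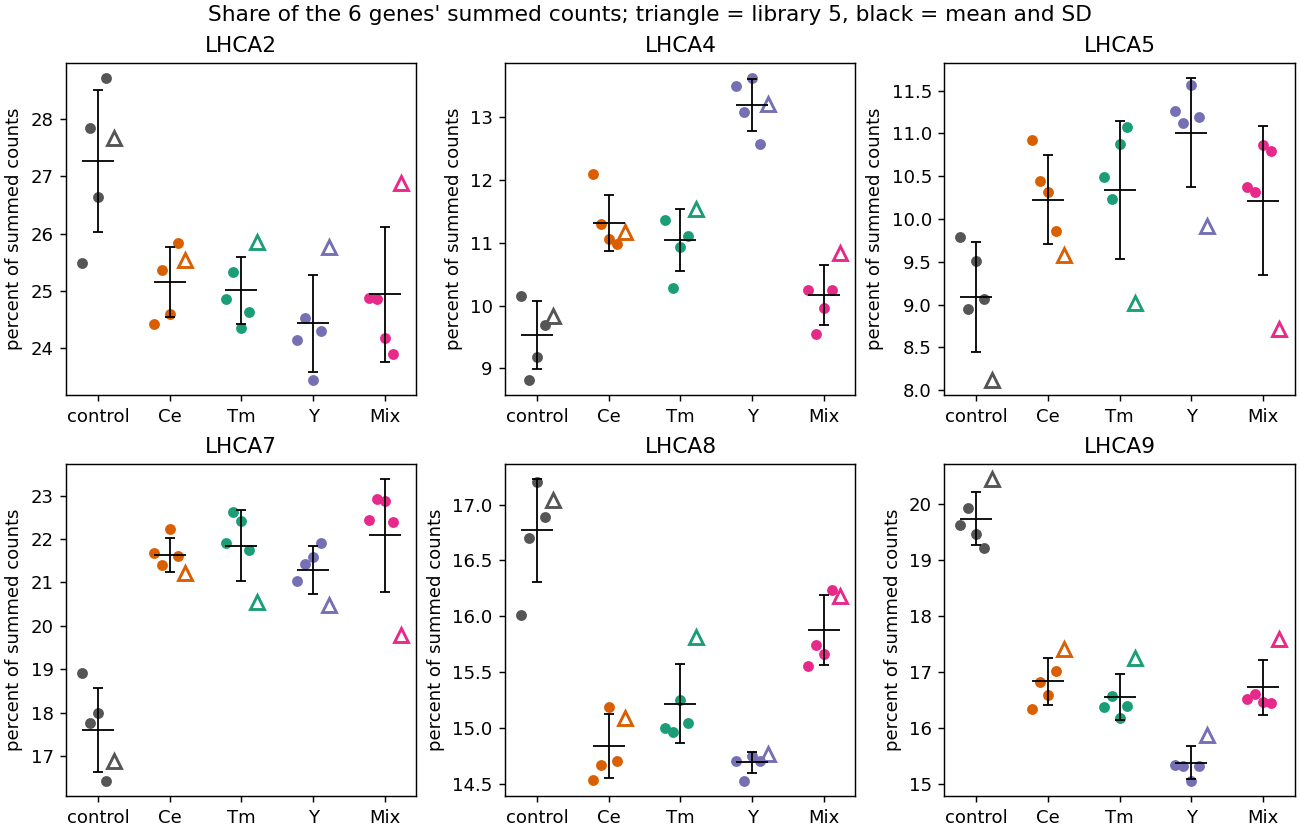
Share of each gene in the summed counts of the 6 (vertical axes in percent, not starting at 0), for the 5 libraries of each group with the mean and SD in black and library 5 as an open triangle. LHCA7 has a higher and LHCA9 a lower share in all 4 exposures than in the control, and the triangles lie lowest for LHCA5 and highest for LHCA9 in all 5 groups.

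Library 5 was at the edge of its group in every group for the shares of LHCA5 and LHCA9. It had the lowest share of LHCA5 in all 5 groups and the highest share of LHCA9 in all 5. For LHCA5 it held 8.72% in Mix against 10.3% to 10.9% in the other Mix libraries. The gap was smaller in Ce, at 9.58% against 9.86% to 10.9%. For LHCA2, LHCA4 and LHCA8 library 5 lay within the range of the other libraries in the control and in Ce. In Tm it lay above the others for all of these genes, with LHCA8 at 15.82% against 14.97% to 15.25%. It also lay above them for LHCA2 in Y and Mix, for LHCA4 in Mix and for LHCA8 in Y. For LHCA7 it was the lowest in 4 of 5 groups. The labels do not say what the replicate numbers stand for, and the part of a shared culture or day in this was not tested. With the replicate number as a block in the fit, the 6 genes kept their calls in all comparisons but that of Ce with the control, where LHCA4 was also called higher (0.20, edgeR adjusted p = 0.04).

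Among genes outside the list with a mean of at least 1 CPM, the 2 whose profiles lay nearest the mean profile of the 6 over the 25 libraries were Cre03g165100 and Cre07g330250, at root-mean-square differences of 0.06 and 0.10 in centred log2 CPM, beside 0.09 to 0.15 for the 6 genes themselves. The first had 861 ± 81.7 CPM in the control and 850 ± 46.9 in Ce, against 1580 ± 47.6 in Y, 1370 ± 64.2 in Tm and 1250 ± 73.6 in Mix. The second had 722 ± 65.3, 707 ± 43.9, 1310 ± 54.8, 1050 ± 73.4 and 915 ± 74.3 CPM in the same order. Both had their highest level in Y and similar levels in Ce and the control, which follows from their being chosen as nearest to this profile. Neither the table nor the reference gives them a name.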

How the data were processed

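The authors' deposited table holds raw read counts per annotated transcript, 1 column per library. The tools named in the submitters' processing notes are SAMtools 1.2, TopHat2 2.0.14 and Trim Galore 0.3.7. The library kit was stranded, per the labels' protocols, but how reads were counted, on which genome build and annotation, is not given in the sources used here, so no coordinates are printed and reads of overlapping genes or close copies among the LHC family may be shared. In 34 cells the text "PAC:" stood inside the number and was removed, 1 of them in LHCA8. The members, lists and comparisons were chosen with earlier results of these data known.

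All 25 libraries entered 1 fit with edgeR 4.0.16 in R 4.3.3 (quasi-likelihood test, robust, TMM with Tm library 2 as the reference, filterByExpr by group, a coefficient per group), and genes with an adjusted p under 0.05 over the 12796 lines tested are called. SE is the absolute log2 fold change divided by the square root of F, and 95% intervals use the same fit without adjustment. A prior count of 2 went into log2 CPM. The code was tested on simulated counts. Alternatives used limma 3.58.1 and DESeq2 1.42.0. The 2 nearest genes were named by the smallest root-mean-square difference. Of 38 IDs listed for other photosynthesis genes, 0 are named in the reference, so they are not reported here.

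Same-numbered libraries of some groups deviated together, by correlations across genes of 0.111 to 0.188 between Ce and Y and 0.193 to 0.440 between Tm and Mix. Between Ce and Tm they were 0.083 to 0.226. They were as low as -0.134 between the control and Y, -0.05 to 0.075 between the control and Ce, and 0.091 to 0.558 between the control and Mix. For Ce with Y and Tm with Mix, where no such correlation fell below 0.111, the numbers count as pairing the libraries. This pairing was seen in the data and is not stated in the labels. In these pairs of groups and in Ce with Tm, all 5 libraries correlated best with their own number. In Tm with Y 4 of 5 did. The main fit has no term for such pairing. No 2 libraries of a group agreed within sampling noise (lowest chi-square per degree of freedom 5.45).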

Additional observations from a re-analysis of the deposited data

Results flagged for a closer look

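Of 30 groups of 5 libraries (6 genes in 5 groups), 1 held a library far from the others on the log2 CPM scale, where chance alone flags about 1 in 20 such groups. This was LHCA9 in Y, where library 4 had 1867 CPM and the other 4 libraries 2006 to 2028. The same library was also the lowest Y library for LHCA2, LHCA4 and LHCA8, and its lower level did not bring it near the controls, whose highest LHCA9 level was 1485 CPM.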

How the results depend on the processing

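All 6 genes were called higher in Tm, Y and Mix than in the control under each alternative that holds them, and 5 of 5 where LHCA8 was left out with the transcripts whose cells held text. The difference between Ce and Y also held under each. Members called higher and lower in Ce against control were 6 and 0 with library totals alone, 3 and 0 with upper-quartile factors, 2 higher with control library 1 as the TMM reference, without the low-count filter and with the replicate block, 2 higher and 1 lower without the transcripts with text, 1 lower when these were left out with Tm library 2 kept as the reference (chosen after seeing the data), and 0 higher with DESeq2. With library totals LHCA2, LHCA8 and LHCA9 turned to 0.58, 0.52 and 0.46 in Ce, and LHCA2 to 0.0096 with upper-quartile factors. In Mix against Ce, library totals gave 0 higher and 1 lower, with LHCA2 at -0.0611, LHCA4 at -0.21, LHCA5 at -0.0568, LHCA7 at -0.021 and LHCA9 at -0.0587, and in Ce against Tm 1 lower. Members lower in Tm than in Y were 2 with control library 1 as the reference, with DESeq2 and without the transcripts with text. Members lower in Mix than in Y were 4 of 6 with control library 1 as the reference and 4 of 5 without the transcripts with text.

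In Mix against the mean of the metals, library totals gave 6 lower (LHCA2 at -0.22, LHCA7 at -0.20, LHCA8 at -0.14, LHCA9 at -0.19). Upper-quartile factors put LHCA2 at -0.0226. Control library 1 as the reference gave 4 higher and 0 lower with LHCA5 at 0.11, the transcripts with text left out 3 higher and 0 lower with LHCA5 at 0.11, and DESeq2 1 higher and 0 lower with LHCA5 at 0.0461. The cause was not tested.

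Leaving out each library in turn gave 1 to 2 members higher in Ce than in the control, 1 to 6 lower in Tm than in Y, 3 to 6 lower in Mix than in Y (3 without Mix library 5), and 0 to 4 higher and 0 to 1 lower in Mix than the mean of the metals, with LHCA5 at -0.0473 to 0.16 there and LHCA8 at -0.0931 to 0.0001 in Mix against Tm. The TMM reference that edgeR chose was control library 1 in 18 of these 25 fits. With Tm library 2 kept, an alternative chosen after seeing the data, all 6 stayed lower in Mix than in Y, none was called higher than the mean of the metals, LHCA2 turned to -0.0025 there without Mix library 4 and to -0.0055 without Mix library 5, which put LHCA5 at 0.0258, the 1 lower call was lost without Mix library 2 or 3, a member more was higher in Ce than in the control without control library 4 or Ce library 4 or 5, and the count lower in Tm than in Y was 2 or 3 without Tm library 3 or 5 or Y library 1, 2, 3 or 5. The replicate block changed no other call. The counts per gene and library were 7216 at the least.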
